A study of Mus musculus with 8 samples.

Results

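The genes described here are 47 regulators and effectors of the cell division cycle, 25 that act at the transition from G1 into S phase (from Ccnd1 to Cdc25a) and 22 that act in G2 and mitosis (from Ccna2 to Ncaph). They were chosen by gene symbol and not by a threshold on their values, although earlier results of these data were known. Each was found as 1 gene among 50902. RNA was sequenced from E14 mouse embryonic stem cells (ESCs) kept in medium with LIF and 2i, 2 inhibitors that with LIF hold ESCs in the ground state. All 8 libraries came from cells transfected with siRNA against Baz2a and collected 3 days later, and all carried a Flag and HA tagged BAZ2A transgene that resists the siRNA, inserted with the piggyBac transposase. In 4 libraries, ESC + F/H-BAZ2ArWT (WT below), the transgene was wild type. In the other 4, ESC + F/H-BAZ2ArΔTAM (ΔTAM below), it lacked the TAM domain, the RNA-binding domain of this chromatin remodelling subunit. The question was which transcripts differ when BAZ2A lacks TAM. No library of untransfected cells, of cells without a transgene or of control siRNA was analysed here. The lines were made from single-cell clones. The labels do not say which clones the libraries came from, so a difference between clones and the effect of the deletion cannot be told apart. The labels also do not say whether the 4 libraries of a condition are separate cultures, so the p-values measure only the spread between these libraries.

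Cyclins bind and activate cyclin-dependent kinases. Cyclins D and E with CDK4, CDK6 and CDK2 phosphorylate the RB proteins and release E2F factors, which switch on the genes for DNA replication. Cyclins A and B with CDK1 drive entry into mitosis, and genes of G2 and mitosis are typically controlled through CCAAT boxes, bound by NF-Y, and CHR elements, bound by the MuvB complex with B-MYB or FOXM1. Mouse ESCs are known for a short G1 phase, a large share of cells in S phase and cyclin E activity that varies little through the cycle.

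The promoters of 6 members are shown first, and all of them but Birc5 carry letters whose shares in the 2 phases are given after them. Each runs from 250 bases before to 50 after the RefSeq start site (assembly GRCm38.p6), 5′ to 3′ on the gene's strand. Capitals mark exact matches on either strand to the E2F words TTTCCCGC, TTTCGCGC, TTTGCCGC and TTTGGCGC, the CCAAT box CCAAT, and the CHR words TTTGAA and TTCGAA. The sequences are Mcm5 (chr8:75109259-75109558, plus strand) and Mcm6 (chr1:128359656-128359955, minus strand), subunits of one helicase that changed in opposite directions, Cdk1 (chr10:69352863-69353162, minus strand) and Cdc20 (chr4:118437294-118437593, minus strand), G2/M genes that rose, Bub1 (chr2:127831810-127832109, minus strand), a G2/M gene that fell, and Birc5 (chr11:117848987-117849286, plus strand), the G2/M gene that rose most.
Mcm5: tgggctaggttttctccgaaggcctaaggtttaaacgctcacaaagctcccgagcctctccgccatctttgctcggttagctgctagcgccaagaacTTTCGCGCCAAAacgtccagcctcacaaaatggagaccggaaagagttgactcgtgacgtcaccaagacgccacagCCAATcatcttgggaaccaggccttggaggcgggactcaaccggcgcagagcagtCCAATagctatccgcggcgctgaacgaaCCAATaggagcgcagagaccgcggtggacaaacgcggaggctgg
Mcm6: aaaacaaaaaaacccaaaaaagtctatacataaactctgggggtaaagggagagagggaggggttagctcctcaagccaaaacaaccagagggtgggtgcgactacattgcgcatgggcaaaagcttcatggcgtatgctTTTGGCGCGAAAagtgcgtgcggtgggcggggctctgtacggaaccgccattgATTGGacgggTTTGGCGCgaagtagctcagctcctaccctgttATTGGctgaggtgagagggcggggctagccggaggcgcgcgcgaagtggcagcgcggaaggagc
Cdk1: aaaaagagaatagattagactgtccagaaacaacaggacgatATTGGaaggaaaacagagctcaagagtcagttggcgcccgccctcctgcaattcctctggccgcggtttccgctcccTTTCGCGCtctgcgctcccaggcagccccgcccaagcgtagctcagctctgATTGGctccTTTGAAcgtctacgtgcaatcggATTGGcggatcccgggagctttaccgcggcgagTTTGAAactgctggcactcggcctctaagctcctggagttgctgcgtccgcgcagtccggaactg
Cdc20: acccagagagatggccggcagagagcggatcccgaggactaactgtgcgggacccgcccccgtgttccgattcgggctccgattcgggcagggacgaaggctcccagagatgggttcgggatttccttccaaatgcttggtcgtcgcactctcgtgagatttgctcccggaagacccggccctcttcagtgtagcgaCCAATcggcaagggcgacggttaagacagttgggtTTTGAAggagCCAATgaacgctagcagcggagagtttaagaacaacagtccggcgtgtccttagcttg
Bub1: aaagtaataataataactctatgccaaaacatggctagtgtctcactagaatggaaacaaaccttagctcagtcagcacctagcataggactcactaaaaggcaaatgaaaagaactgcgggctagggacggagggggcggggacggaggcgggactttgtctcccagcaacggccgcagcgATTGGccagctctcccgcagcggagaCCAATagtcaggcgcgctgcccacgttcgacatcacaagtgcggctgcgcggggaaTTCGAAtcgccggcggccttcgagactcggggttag
Birc5: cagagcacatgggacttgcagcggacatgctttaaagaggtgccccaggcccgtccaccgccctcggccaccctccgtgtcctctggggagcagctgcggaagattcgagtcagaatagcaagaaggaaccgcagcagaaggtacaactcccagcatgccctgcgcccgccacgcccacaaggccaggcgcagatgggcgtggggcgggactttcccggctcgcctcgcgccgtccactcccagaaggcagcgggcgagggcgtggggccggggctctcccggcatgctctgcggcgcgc

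Counted from the start site, the E2F words of Mcm5 began at -153 and -149, where they overlap, and those of Mcm6 at -110, -106 and -47, the first pair overlapping. Cdk1 held an E2F word at -131 and CHR words at -71 and -15. A CHR word began at -18 in Cdc20 and at 15 in Bub1, each with CCAAT boxes nearby. The Birc5 window held none of these letters. RefSeq promoters were matched for 38 members, and not for Aurkb, Ccna2, Ccnd1, Ccnd2, Ccne2, Gins2, Mcm4, Smc4 and Tpx2. A CHR word stood in 14 of the 18 G2/M promoters (77.8%), 3 of the 20 G1/S promoters (15%) and 14.2% of the 6294 promoters of all genes tested. A CCAAT box stood in 88.9% of the G2/M promoters, 60% of the G1/S promoters and 41.3% of all. The order was the other way round for the E2F words, found in 9 of 20 G1/S promoters (45%), 2 of 18 G2/M promoters (11.1%) and 4.83% of all. Within G1/S, 7 of the 11 promoters of genes that rose and 2 of the other 9 held an E2F word. Those 2 were Mcm6 and Cdt1, the 2 G1/S members that fell. Within G2/M, 3 of the 5 promoters of genes that rose and 11 of the other 13 held a CHR word. These shares describe letters in a fixed window and were not tested. The RefSeq start lay away from the 5′ end of the gene in the files by 2408 bases in Cdk6, 539 in Mcm7, 466 in E2f1, 350 in Cdc6 and at most 134 in the other members, so some windows may not be the main promoter.

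**Figure D1:**
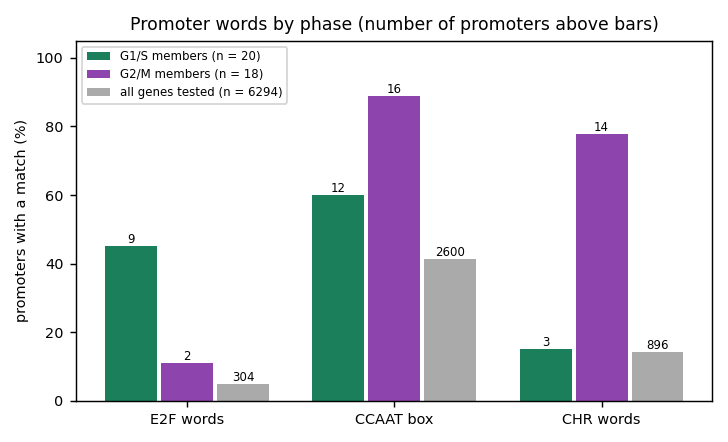
Share of promoters (%, bars from 0) with at least 1 match to the E2F words, the CCAAT box or the CHR words on either strand, in G1/S members, G2/M members and all genes tested, with the number of promoters above each bar. CHR words stood in 14 of 18 G2/M promoters against 3 of 20 G1/S promoters, and E2F words in 2 against 9.

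The deposited values are RPKM, reads scaled by the whole span of the gene, introns included, and by the library's total. They compare a gene between libraries. Levels of different genes are compared as exonic RPKM, computed here from the same reads with the exonic length and the total of reads on genes. Sums of RPKM over a list and the choice of the member with the highest mean RPKM also mix genes. Both depend on the spans of the genes. The libraries held 6585593 to 8696304 reads on genes, and a member had between 38 (Ccnd2) and 7527 (Top2a) reads in a library. Fold changes are ΔTAM over WT on log2(RPKM + 0.1), which understates the change of genes with a low RPKM. A gene is said to have risen or fallen where its adjusted p was under 0.05. The ESC markers Pou5f1, Nanog, Sox2 and Zfp42 had at least 1804 reads each in every library, while all 6 primitive endoderm and all 8 fibroblast markers were under the expression filter, with the fibroblast genes Col3a1, Dcn, Lum and Twist2 at 0 in every library. The summed fibroblast markers reached 0.0112 to 0.0187 RPKM in WT and 0.0102 to 0.0332 in ΔTAM. The ESC markers summed to 87.5 to 90.1 RPKM in WT and 74.5 to 80.3 in ΔTAM, and 4 of the 8 fell (Esrrb, Klf4, Sox2 and Tbx3), where 16.0% of all genes tested fell. The 6 primed markers summed to 1.69 to 2.05 RPKM in WT and 1.54 to 1.82 in ΔTAM. Of these Fgf5 was at 0, Otx2 and Pou3f1 lay under the filter, Dnmt3b rose, and T and Foxd3 did not pass the test with means of 0.702 and 0.842 RPKM in WT and 0.621 and 0.630 in ΔTAM. What part these marker changes play in the values of the cell cycle genes was not tested. Baz2a, where reads of the transgene and of the endogenous gene cannot be told apart, stood at 9.95, 10.3, 10.5 and 11.2 RPKM in WT replicates 1 to 4 and 17.0, 18.6, 18.5 and 18.9 in ΔTAM, a log2 fold change of 0.79 ± 0.046 (SE). Every ΔTAM library was above every WT library, so the amount of Baz2a RNA and the lack of TAM cannot be told apart.

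In both phases more of the tested members rose than fell in ΔTAM. The share of G2/M genes called in either direction was close to that over all genes tested. The difference between the phases was not tested. Of the 25 G1/S members, 23 passed the filter of 0.1 RPKM, and of these 12 rose (52.2%), 2 fell (8.70%) and 9 did not pass the test. Among all 9002 genes tested, 19.9% rose and 16.0% fell, 35.9% in either direction. Of the 22 G2/M members, all of which were tested, 6 rose (27.3%), 2 fell (9.09%) and 14 did not pass. The median log2 fold change was 0.092 in G1/S, 0.0026 in G2/M and 0.011 over all genes tested. Among the 45 members tested the fold changes ran from -0.16 to 0.40 in G1/S and from -0.42 to 0.41 in G2/M, and none went past 0.58 in either direction, the size the study used as its threshold. Ccnd2, under the filter, is described separately. Every ΔTAM library lay above every WT library in 12 of the tested G1/S and 5 of the G2/M members (20.5% of all genes tested) and below in 2 and 2 (16.7%). More cells in a phase and more RNA per cell in that phase cannot be told apart in these bulk libraries.

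**Figure D2:**
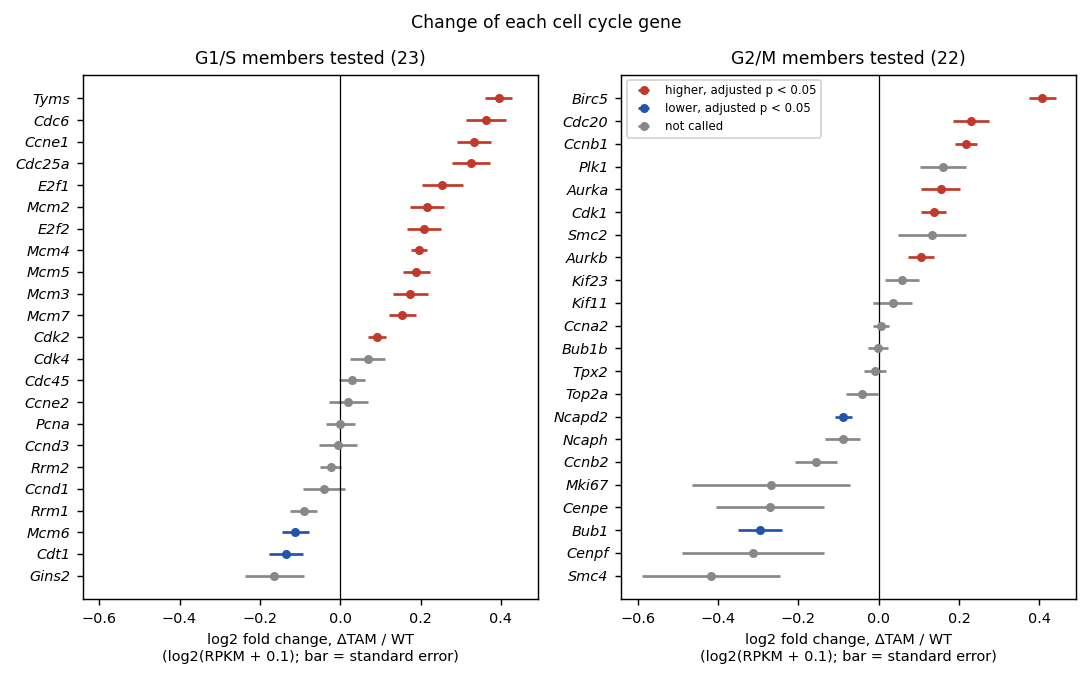
Log2 fold change (ΔTAM over WT, points) with its standard error (bars) of each tested member, G1/S on the left and G2/M on the right, coloured by call. In G1/S 12 of 23 rose and 2 fell, and in G2/M 6 of 22 rose and 2 fell, with the widest error bars on Mki67, Cenpe, Cenpf and Smc4.

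Summed over the members, G1/S genes took 5950 to 6333 RPM (reads scaled by the total on genes) in the WT libraries and 6425 to 6740 in the ΔTAM libraries. These ranges do not overlap. The G2/M genes took 4587 to 4949 RPM in WT and 4434 to 4850 in ΔTAM, and these ranges overlap. Which phase separates the groups depended on the scale. Summed as RPKM, which differ from the RPM in the division by gene span and in the library total used, the G1/S members gave 82.5 to 88.4 in WT and 88.1 to 93.7 in ΔTAM, which overlap, and the G2/M members 40.3 to 41.4 in WT and 42.7 to 43.9 in ΔTAM, which do not.

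Among the cyclins and kinases of G1 in the main test, cyclin E1 had the largest change. Ccne1 (chr7:38097984-38107534 in mm10, minus strand), which activates CDK2 at the entry into S phase, stood at 2.14, 2.09, 2.18 and 2.03 RPKM in WT replicates 1 to 4 and at 2.48, 2.80, 2.78 and 2.70 in ΔTAM replicates 1 to 4. Every ΔTAM library was above every WT library, with means of 2.11 ± 0.0623 and 2.69 ± 0.147 RPKM (SD, n = 4), 27.4% higher (log2 fold change 0.33 ± 0.043 (SE), adjusted p = 9.15e-04). Its partner Cdk2 measured 3.15, 3.13, 3.16 and 3.13 RPKM in WT and 3.36, 3.30, 3.47 and 3.31 in ΔTAM. The groups did not overlap, yet the rise was only 6.83% (0.092 ± 0.023 (SE), adjusted p = 0.0174). The second cyclin E gene did not pass the test. Ccne2 stood at 0.157, 0.133, 0.128 and 0.134 RPKM in WT and 0.142, 0.134, 0.140 and 0.150 in ΔTAM, with a log2 fold change of 0.02 (adjusted p = 0.772) and overlapping groups. On the exonic scale Ccne1 was far above Ccne2 in WT, at 50.7 ± 1.40 against 3.56 ± 0.333 exonic RPKM (SD, n = 4).

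Cdk4 is the kinase of the D-type cyclins. Its values were 16.6, 17.6, 17.8 and 16.0 RPKM in WT and 17.1, 18.4, 17.4 and 18.4 in ΔTAM, which overlap (log2 fold change 0.069 ± 0.043 (SE), adjusted p = 0.258). The D-type cyclins, which carry growth factor signals to CDK4 and CDK6, showed no call in the main test. Ccnd1 was at 1.63, 1.72, 1.74 and 1.49 RPKM in WT and 1.55, 1.69, 1.58 and 1.56 in ΔTAM (log2 fold change -0.041 ± 0.053 (SE)). Ccnd3 was at 0.603, 0.657, 0.602 and 0.543 RPKM in WT and 0.600, 0.605, 0.598 and 0.587 in ΔTAM (log2 fold change -0.0054 ± 0.047 (SE)), its ΔTAM libraries falling inside the range of the WT libraries. Exons of genes on the other strand overlap those of Ccnd1 by 1100 bases, Cdk4 by 641, Ccne2 by 609 and Ccna2 by 510, and whether the counting used strand is not given in the sources used here.

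2 members, Ccnd2 and Cdk6, lay under the expression filter and have no call in the main test. Ccnd2, the third D-type cyclin (chr6:127125162-127152193, minus strand), stood at 0.0647, 0.0797, 0.0676 and 0.0495 RPKM in WT and at 0.0311, 0.0405, 0.0312 and 0.0357 in ΔTAM, from 69 to 111 and from 38 to 56 reads in a library. All ΔTAM libraries were below all WT libraries, with a mean 47.0% lower. Cdk6, the partner kinase of CDK4, stood at 0.0854, 0.0761, 0.0863 and 0.0798 RPKM in WT and 0.0940, 0.0925, 0.0959 and 0.0953 in ΔTAM, from 743 to 805 and from 768 to 1049 reads. All ΔTAM libraries were above all WT libraries, with a mean 15.3% higher. For each gene an exact two-sided permutation test over the 8 libraries gave p = 0.0286, the smallest value that 4 against 4 can give. In a model on reads recovered from the RPKM (voom), which filters on reads, 21.8% of 12660 genes rose and 21.8% fell. There the log2 fold change was -0.90 ± 0.16 (SE) for Ccnd2 (adjusted p = 8.53e-05) and 0.21 ± 0.047 (SE) for Cdk6 (adjusted p = 9.28e-04). In the main model without the filter Ccnd2 passed (adjusted p = 0.0186) and Cdk6 did not (log2 fold change 0.096, adjusted p = 0.0933). On the exonic scale Ccnd2 was at 1.26 ± 0.236 and Cdk6 at 7.43 ± 0.440 exonic RPKM in WT, against 154 ± 7.25 for Cdk4 and 43.4 ± 3.23 for Ccnd3 (SD, n = 4). Cdk6 was thus above Ccne2 (3.56 ± 0.333) and E2f2 (5.3 ± 0.24), which both passed the filter. The RPKM of the filter divide by the span of the gene, 189523 bases in Cdk6.

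Both E2F members rose, where 19.9% of all genes tested did. E2f1, an activator of replication genes, had a log2 fold change of 0.25 ± 0.05 (SE) (adjusted p = 0.00625), from 1.19 ± 0.0761 to 1.44 ± 0.0628 RPKM (SD, n = 4). E2f2, of the same activator class, had 0.21 ± 0.043 (SE) (adjusted p = 0.00754), from 0.165 ± 0.00693 to 0.206 ± 0.0145 RPKM. In both genes every ΔTAM library exceeded every WT library. Cdc25a, the phosphatase that removes the inhibitory phosphates from CDK2, measured 1.06, 1.04, 1.06 and 1.07 RPKM in WT and 1.26, 1.49, 1.37 and 1.30 in ΔTAM. The WT libraries lay within a narrow range and all ΔTAM libraries above it, 27.9% higher (log2 fold change 0.33 ± 0.048 (SE), adjusted p = 0.00171).

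Of the licensing factors, which load the MCM helicase onto origins before S phase, Cdc6 and Cdt1 moved apart. Cdc6 (chr11:98907801-98923940, plus strand) stood at 0.775, 0.675, 0.762 and 0.728 RPKM in WT and 0.921, 0.979, 1.04 and 0.948 in ΔTAM. All ΔTAM libraries were higher, with means 32.4% apart (log2 fold change 0.36 ± 0.05 (SE), adjusted p = 0.00130). Cdt1, which acts with CDC6, fell by 9.21% to 4.42 ± 0.113 RPKM from 4.87 ± 0.274 (log2 fold change -0.14 ± 0.043 (SE), adjusted p = 0.0428). WT replicate 4 at 4.47 RPKM was within the ΔTAM range, and the call was lost when any 1 library other than that one was left out (adjusted p up to 0.104).

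The members include the 6 subunits of the MCM2-7 helicase, which unwinds DNA at the fork. 5 of them rose and 1 fell, where 19.9% and 16.0% of all genes tested did, and the calls of Mcm3 and Mcm6 did not hold under every alternative. The log2 fold changes were 0.22 ± 0.042 (SE) for Mcm2 (adjusted p = 0.00587), 0.17 ± 0.044 (SE) for Mcm3 (adjusted p = 0.0183), 0.20 ± 0.02 (SE) for Mcm4 (adjusted p = 3.39e-04), 0.19 ± 0.034 (SE) for Mcm5 (adjusted p = 0.00393) and 0.15 ± 0.033 (SE) for Mcm7 (adjusted p = 0.00904). In each of the 5, every ΔTAM library lay above every WT library. Mcm4 had the tightest values, 4.08, 4.15, 4.17 and 4.02 RPKM in WT and 4.73, 4.72, 4.72 and 4.69 in ΔTAM. Mcm6 went the other way, with 3.12, 3.13, 3.32 and 3.15 RPKM in WT and 2.83, 3.06, 2.98 and 2.88 in ΔTAM. The groups did not overlap, but the mean fell by 7.64%, near the threshold of the test (log2 fold change -0.11 ± 0.034 (SE), adjusted p = 0.0359) and the call was lost when any 1 library but ΔTAM replicate 2 was left out (adjusted p up to 0.0913). Both Mcm5 and Mcm6 carry E2F words and CCAAT boxes in the promoters printed above. In exonic RPKM the helicase subunits ran from 73.3 ± 3.56 (Mcm2) to 167 ± 8.22 (Mcm3) in WT. Mcm6 went from 128 ± 3.81 to 118 ± 3.72 and Mcm5 from 133 ± 4.30 to 152 ± 3.90 on that scale (SD, n = 4). The Mcm3 call was lost without WT replicate 1 (adjusted p = 0.0512) and without ΔTAM replicate 4 (adjusted p = 0.0518). Mir25 and Mir93 lie within Mcm7 and overlap its annotated exons by up to 88 bases. CDC45 and the GINS complex complete the active helicase. Cdc45 had a log2 fold change of 0.029 (adjusted p = 0.530). Gins2 had -0.16 (adjusted p = 0.121), with WT replicate 4 at 0.634 RPKM and the other WT libraries between 0.781 and 0.803. Without that library its fold change was -0.24 (adjusted p = 0.00791). 2758 of the 4097 exonic bases of Gins2 overlap exons of Gse1 on the other strand.

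Among the genes of nucleotide supply and the sliding clamp (Tyms, Rrm1, Rrm2 and Pcna), 1 passed the test, where 35.9% of all genes tested did. Tyms, which makes thymidylate for DNA synthesis (chr5:30058202-30073617, minus strand), stood at 0.891, 0.918, 0.823 and 0.867 RPKM in WT and 1.16, 1.20, 1.18 and 1.18 in ΔTAM. Its 35.0% rise was the largest of the G1/S members, with no overlap (log2 fold change 0.40 ± 0.034 (SE), adjusted p = 1.41e-04). The subunits of ribonucleotide reductase did not pass the test, with a log2 fold change of -0.091 for Rrm1 (adjusted p = 0.0705) and -0.024 for Rrm2 (adjusted p = 0.508). All ΔTAM libraries were below all WT libraries for Rrm1, at 1.39, 1.50, 1.52 and 1.41 RPKM against 1.58, 1.53, 1.57 and 1.54. Rrm1 passed in 4 alternatives, with adjusted p of 0.0342 (median-ratio scaling), 0.0264 (quantile normalization), 0.0364 (voom) and 0.0480 (without ΔTAM replicate 3). Pcna, the clamp that tethers the polymerases, averaged 9.99 ± 0.0610 RPKM in WT and 10.0 ± 0.491 in ΔTAM (adjusted p = 0.996). Pcna and Tyms have annotated pseudogenes (Pcna-ps1, Pcna-ps2 and Tyms-ps), and how reads mapping to several places were treated is not given in the sources used here.

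**Figure D3:**
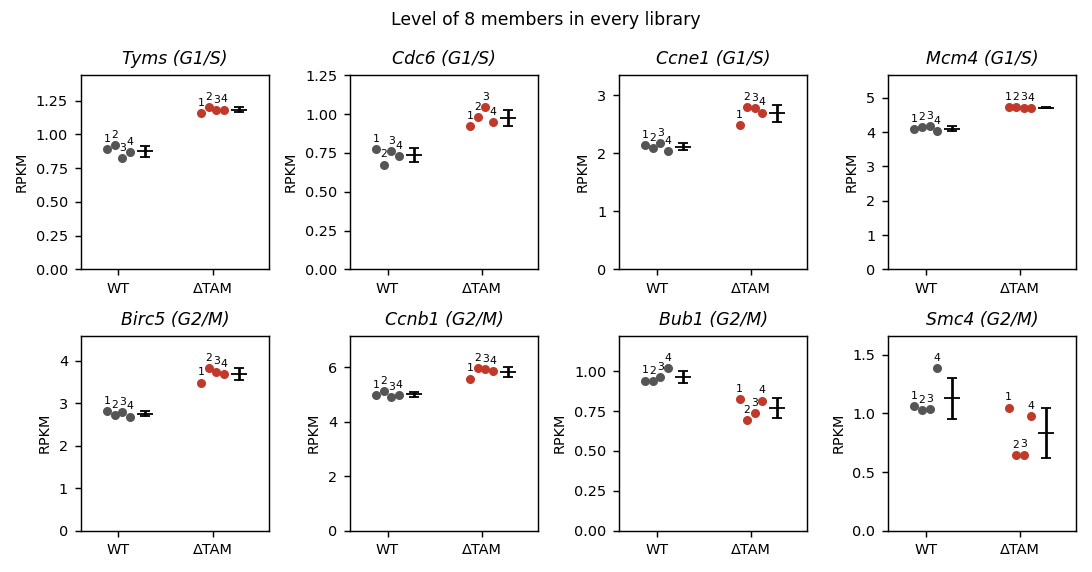
RPKM (linear axes from 0) of 8 members in each library, points numbered by replicate, with the mean and SD of each group beside them. The ΔTAM libraries lie above all WT libraries in Tyms, Cdc6, Ccne1, Mcm4, Birc5 and Ccnb1, below them in Bub1, and overlap them in Smc4, where WT replicate 4 is highest.

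In G2 and mitosis, the kinase CDK1 and 1 of its 2 B-type cyclins rose. Ccnb1, which activates CDK1 for mitotic entry, stood at 4.99, 5.12, 4.91 and 4.97 RPKM in WT and 5.58, 5.95, 5.92 and 5.84 in ΔTAM. All ΔTAM libraries were higher (log2 fold change 0.22 ± 0.028 (SE), adjusted p = 9.10e-04). Cdk1 itself stood at 1.76, 1.83, 1.89 and 1.79 RPKM in WT and 1.96, 1.98, 2.09 and 2.01 in ΔTAM, again without overlap (log2 fold change 0.14 ± 0.031 (SE), adjusted p = 0.0110). Ccnb2, the second B-type cyclin, stood at 1.48, 1.66, 1.60 and 1.46 RPKM in WT and 1.32, 1.39, 1.49 and 1.33 in ΔTAM. It did not pass the test (log2 fold change -0.16 ± 0.052 (SE), adjusted p = 0.0520) and ΔTAM replicate 3 reached into the WT range. With that library left out its adjusted p was 0.031, without WT replicate 4 it was 0.0408, and with voom 0.00889. Ccnb2 also passed with median-ratio scaling, quantile normalization, a minimum mean of 1 RPKM and, as given below, a replicate block. Ccna2, which partners CDK2 in S phase and CDK1 later, gave 3.74, 3.68, 3.77 and 3.76 RPKM in WT and 3.70, 3.79, 3.78 and 3.75 in ΔTAM. The 8 libraries lay within a narrow range and the groups overlapped (log2 fold change 0.0065 ± 0.02 (SE), adjusted p = 0.827). Ccnb1 and Ccnb2 have annotated pseudogenes.

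Birc5 (survivin), the targeting subunit of the chromosomal passenger complex and an inhibitor of apoptosis, had the largest fitted rise of the members tested, although by the means in RPKM Tyms rose by slightly more. The gene (chr11:117849251-117855743, plus strand) stood at 2.81, 2.72, 2.80 and 2.68 RPKM in WT and 3.49, 3.82, 3.74 and 3.69 in ΔTAM. Every ΔTAM library exceeded the highest WT library, and the mean was 33.9% higher (log2 fold change 0.41 ± 0.033 (SE), adjusted p = 1.17e-04). Aurkb, the kinase of that complex, rose by 7.86% (log2 fold change 0.10 ± 0.032 (SE), adjusted p = 0.0366), and Aurka, the kinase of the spindle poles, by 12.1% (0.15 ± 0.048 (SE), adjusted p = 0.0396). Both kinase calls were near the threshold and were lost in 6 of the 8 cases of leaving out 1 library, with adjusted p up to 0.0927 for Aurkb and 0.0973 for Aurka. Aurkb was also lost with median-ratio scaling (adjusted p = 0.0664), quantile normalization (0.188), no filter (0.0549) and voom (0.0527), and Aurka with quantile normalization (0.0683) and no filter (0.0775). Tpx2, which activates Aurora A on the spindle, had a log2 fold change of -0.0088 (adjusted p = 0.828). Plk1, the polo kinase of mitotic entry and exit, had 0.16 (adjusted p = 0.0635), with 1 ΔTAM library (replicate 3, 1.79 RPKM) inside the WT range. It passed with voom (adjusted p = 0.00953) and with a minimum mean of 1 RPKM (adjusted p = 0.0480).

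The activator of the anaphase-promoting complex rose while a checkpoint kinase that restrains it fell. Cdc20, which directs that complex to cyclin B and securin, stood at 5.97, 6.30, 6.18 and 5.70 RPKM in WT and 6.63, 7.20, 7.51 and 7.06 in ΔTAM. The groups did not overlap (log2 fold change 0.23 ± 0.046 (SE), adjusted p = 0.00657). Bub1, a kinase of the spindle checkpoint (chr2:127801122-127831865, minus strand), stood at 0.942, 0.935, 0.964 and 1.02 RPKM in WT and 0.827, 0.693, 0.740 and 0.816 in ΔTAM. All ΔTAM libraries were lower, and the mean fell by 20.3% (log2 fold change -0.30 ± 0.055 (SE), adjusted p = 0.00496). Bub1b, which encodes the checkpoint protein BUBR1, had a log2 fold change of -0.0013 (adjusted p = 0.973). Cdc20 and Bub1 both carry a CHR word and CCAAT boxes near the start site.

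Condensin, which compacts mitotic chromosomes, was represented by 4 members. Ncapd2 fell by a small and even amount, from 2.71, 2.72, 2.65 and 2.74 RPKM in WT to 2.55, 2.58, 2.49 and 2.54 in ΔTAM without overlap (log2 fold change -0.088 ± 0.022 (SE), adjusted p = 0.0176), a call lost without ΔTAM replicate 3 (adjusted p = 0.0506). Ncaph had a log2 fold change of -0.09 (adjusted p = 0.146) and passed without WT replicate 1 (adjusted p = 0.0173). The core ATPase subunits pointed in different directions and neither passed the test, with 0.13 ± 0.084 (SE) for Smc2 (adjusted p = 0.261) and -0.42 ± 0.17 (SE) for Smc4 (adjusted p = 0.0957). Top2a, the topoisomerase that decatenates sister chromatids, had -0.041 (adjusted p = 0.460). The motor proteins of the spindle and midzone did not pass either, with 0.035 for Kif11 (adjusted p = 0.615) and 0.059 for Kif23 (adjusted p = 0.323). In exonic RPKM, Cdc20, Top2a and Ccnb2 were the strongest G2/M members in WT, at 96.3 ± 3.89, 95.8 ± 3.88 and 93.8 ± 5.46 (SD, n = 4), neighbours that do not differ beyond their spread, while Cenpf and Cenpe were the weakest, at 8.29 ± 1.33 and 9.74 ± 1.72.

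The largest negative fold changes among members without a call rested on genes whose libraries differed within each group. These are described together because of that spread, which was noticed after their values were seen. Smc4 stood at 1.06, 1.03, 1.04 and 1.38 RPKM in WT and 1.05, 0.646, 0.648 and 0.979 in ΔTAM. Mki67, the proliferation marker that coats mitotic chromosomes, stood at 1.16, 1.03, 1.02 and 1.51 RPKM in WT and 1.27, 0.801, 0.698 and 1.14 in ΔTAM (log2 fold change -0.27 ± 0.20 (SE), adjusted p = 0.330). Cenpf, of the outer kinetochore, stood at 0.394, 0.361, 0.360 and 0.494 RPKM in WT and 0.424, 0.244, 0.211 and 0.366 in ΔTAM (-0.31 ± 0.18 (SE), adjusted p = 0.207). In each of these genes WT replicate 4 was the highest of all libraries, and ΔTAM replicates 1 and 4 were above ΔTAM replicates 2 and 3. Cenpe, a kinetochore motor, showed the same order, with 0.190, 0.190, 0.182 and 0.258 RPKM in WT and 0.211, 0.119, 0.118 and 0.171 in ΔTAM (-0.27 ± 0.13 (SE), adjusted p = 0.157). Without ΔTAM replicate 1, Smc4 had a log2 fold change of -0.53 (adjusted p = 0.0457) and Cenpe of -0.37 (adjusted p = 0.0478). In the voom model Smc4, Cenpe and Cenpf passed, with adjusted p of 0.00285, 0.00944 and 0.0202, and Mki67 did not (adjusted p = 0.0761).

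This order of libraries, WT replicate 4 above the other WT libraries and ΔTAM replicates 1 and 4 both above 2 and 3, held in 8 of the 22 G2/M members (Bub1, Cenpe, Cenpf, Kif11, Mki67, Smc2, Smc4 and Top2a), in 0 of the 23 G1/S members and in 622 of all 9002 genes tested (6.91%). The order was defined on Smc4, Mki67, Cenpe and Cenpf, so those 4 carry no weight in the count, which leaves 4 of the other 18 G2/M members. The genes with this order had a larger exonic length, which is the merged exons of all annotated transcripts of a gene. The median was 6982 bases against 3558 in the other genes tested, and 8040.5 against 4150 among the G2/M members. The 8040.5 includes the 4 genes that defined the order. Across 8844 genes tested that have an exonic length, the deviation of a library from its group's mean correlated with that length with a Spearman's rho of 0.22 in WT replicate 4, 0.13 in ΔTAM replicate 1 and 0.041 in ΔTAM replicate 4, and between -0.15 and -0.051 in the other 5 libraries. Among the G2/M members alone the rho was 0.78, 0.81 and 0.60 in those 3 libraries (n = 22 genes), -0.064 in WT replicate 1 and between -0.78 and -0.64 in the other 4. Among the G1/S members it ran from -0.36 to 0.35 (n = 23 genes). These are correlations across genes of the same libraries, which are not independent replicates, and are given as a description. Between exonic length and log2 fold change, Spearman's rho was -0.54 in G2/M (n = 22), 0.13 in G1/S (n = 23) and -0.0058 over 8844 genes tested. All G2/M values of rho include Smc4, Mki67, Cenpe and Cenpf, which defined the order. They were not computed without these genes, so the relation to length in G2/M rests in part on genes picked for their spread. Whether exonic length, or what differs between these libraries, plays a part in the fold changes of Smc4, Mki67, Cenpe, Cenpf and Bub1 was not tested.

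**Figure D4:**
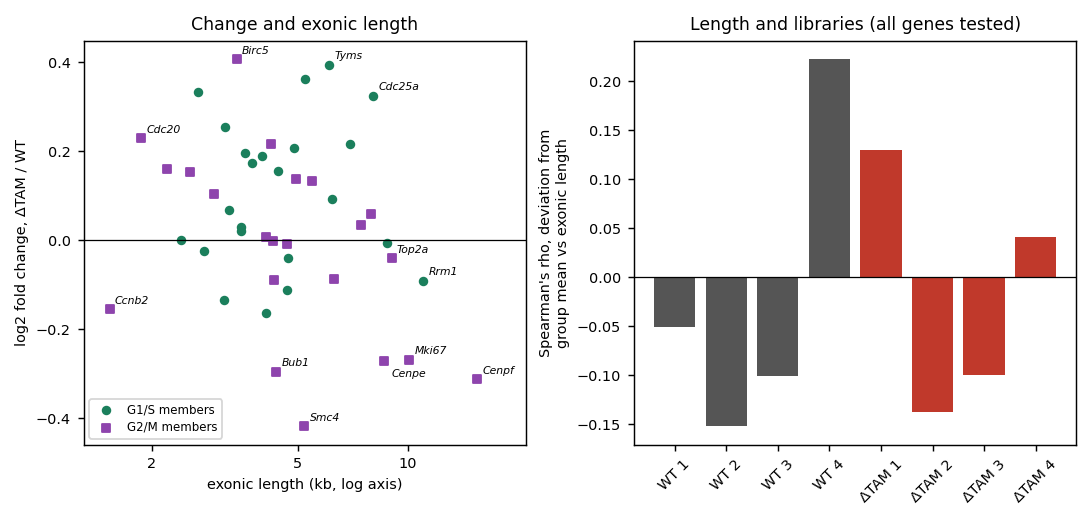
Left, log2 fold change (ΔTAM over WT) against exonic length (kb, log axis) for the 45 tested members by phase. Right, Spearman's rho across 8844 genes between exonic length and each library's deviation from its group's mean, 0.22 in WT replicate 4 and 0.13 in ΔTAM replicate 1.

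**Figure D5:**
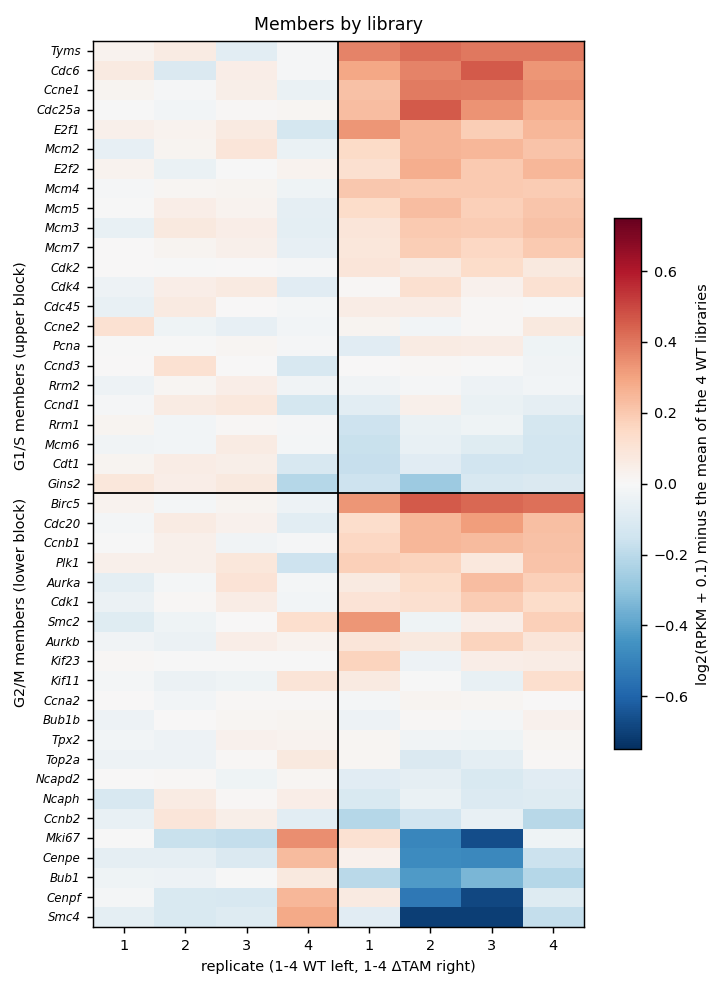
Log2(RPKM + 0.1) of each tested member (rows, ordered by fold change within phase) in each library (columns) minus the mean of the 4 WT libraries, blue for lower and red for higher. Rows from Tyms to Mcm7 are red in all 4 ΔTAM columns, whereas Mki67, Cenpe, Cenpf and Smc4 differ between ΔTAM replicates 1 and 4 and replicates 2 and 3.

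Of 44 other genes of G1/S and DNA replication, 39 were tested. In this list, which lies outside the 47, 4 rose (10.3%, against 19.9% of all genes tested) and 8 fell (20.5%, against 16.0%), and 27 did not pass, with a median log2 fold change of 0.012. Those that rose were E2f3, Rpa1, Rpa2 and Tk1, and those that fell Cdc7, E2f6, Orc3, Orc5, Pold2, Prim1, Rbl1 and Rfc1. Tk1, which salvages thymidine and so feeds the same pool as Tyms, went from 0.876 ± 0.0676 to 1.34 ± 0.0350 RPKM (SD, n = 4, log2 fold change 0.56 ± 0.05 (SE), adjusted p = 1.72e-04). Rpa2, of the single-strand binding complex RPA, had 0.23 (adjusted p = 0.00350). Pold2, a subunit of DNA polymerase delta, had -0.36 (adjusted p = 4.53e-04), and Orc3, of the origin recognition complex, -0.20 (adjusted p = 0.00499).

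Of 39 other G2/M genes, 36 were tested, 15 rose (41.7%, against 19.9% of all genes tested), 7 fell (19.4%, against 16.0%) and 14 did not pass, with a median of 0.066. The widest change was in Pttg1, which encodes securin, the inhibitor of separase and a substrate of CDC20. It stood at 1.04, 1.16, 1.15 and 1.18 RPKM in WT and 2.37, 2.22, 2.21 and 2.20 in ΔTAM, 99.3% higher without overlap (log2 fold change 0.94 ± 0.043 (SE), adjusted p = 1.40e-05). Ube2c, the ubiquitin-conjugating enzyme of the anaphase-promoting complex, had 0.36 (adjusted p = 4.03e-04). The other genes that rose were Bub3, Ccnf, Cdc25b, Ect2, Fzr1, Incenp, Kif20a, Kif2c, Lin37, Ncapg2, Prc1, Spc24 and Ube2s. Hmmr, a spindle-associated protein, had -0.39 (adjusted p = 0.00214), and Mybl2, the B-MYB factor that acts with MuvB, -0.27 (adjusted p = 6.36e-04). Anln, Ncapg, Ncaph2, Spc25 and Ttk fell as well.

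Among 10 CDK inhibitors and inhibitory kinases, 8 were tested, 3 rose (37.5%, against 19.9% of all genes tested) and 1 fell (12.5%, against 16.0%). Cdkn1a (p21), the inhibitor of CDK2 complexes, stood at 4.99, 4.92, 4.53 and 4.66 RPKM in WT and 7.09, 7.24, 7.44 and 7.31 in ΔTAM. The groups did not overlap, and its log2 fold change of 0.60 ± 0.035 (SE) (adjusted p = 3.63e-05) was larger than that of any of the 45 members tested. Cdkn1b (p27) had 0.14 (adjusted p = 0.0422) with overlapping groups, a call lost with voom (adjusted p = 0.0550), where 2 of 9 of these genes rose, near the 21.8% of all genes in that model. Wee1, the kinase that inhibits CDK1, had 0.18 (adjusted p = 0.0126). Gadd45a, a stress-induced inhibitor of CDK1, stood at 0.571, 0.592, 0.557 and 0.886 RPKM in WT and 0.328, 0.358, 0.453 and 0.372 in ΔTAM (log2 fold change -0.64 ± 0.14 (SE), adjusted p = 0.0106), its WT replicate 4 standing above the other WT libraries. Cdkn2b, Cdkn2a, Cdkn2d and Pkmyt1 did not pass, and Cdkn1c and Cdkn2c lay under the filter.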

How the data were processed

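The members and gene lists were chosen with earlier results of these data known. PolyA RNA libraries (stranded kit, single-end reads) were sequenced. Per the study's methods, reads were cleared of ribosomal RNA and trimmed (Trimmomatic 0.36 per the submitters' processing notes), then STAR aligned them to mm10. From exon coverage by a pipeline of their own the authors deposited RPKM for each library, unpooled. The RPKM divide by the distance from gene start to end. Coordinates of all 47 members equal those of GENCODE vM21, which gave exonic lengths (merged exons of all annotated transcripts of a gene). Multiplied by that distance, 99.5% to 99.6% of values were whole multiples of 1 read within 0.05 reads, which gave reads per gene. Of 51288 entries, 386 repeats of a symbol were set aside.

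Log2(RPKM + 0.1) was fitted for genes averaging 0.1 RPKM or more with limma 3.58.1 (R 4.3.3; lmFit, eBayes with trend, no covariates) on the 8 libraries, with Benjamini-Hochberg adjustment over all 9002 genes tested. Voom on recovered reads (mean of at least 10), other pseudocounts, filters, scalings and single libraries left out were alternatives. Scripts were tested on simulated data. Every member was named. Values in each library were given for the 4 members of each phase and direction with the largest called change without overlap, members under the filter, the member of each phase with the highest mean RPKM (Cdk4 and Cdc20), cyclins and CDKs, and from other lists the 2 largest calls in each direction were named. Other members with library values (Mcm4, Rrm1, Smc4, Mki67, Cenpe and Cenpf) were chosen after their values were seen. So were Pttg1, Cdkn1a and Gadd45a among the genes named from other lists. Baz2a was given as the targeted gene. Promoters are from RefSeq.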

Additional observations from a re-analysis of the deposited data

Results flagged for a closer look

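In 8 of 118 groups of 4 libraries examined for the members and the other named genes, 1 library stood apart, its gap to the nearest library being a larger part of the group's range than Dixon's critical value for 4 libraries. Chance alone flags about 0.05 of such groups. WT replicate 4 was the library in 4 of them. It was high in Smc4 (1.38 RPKM, nearest library 1.06), Cenpe (0.258, nearest 0.190) and Gadd45a (0.886, nearest 0.592), and low in Gins2 (0.634, nearest 0.781). The others were Mcm6 in WT replicate 3 (3.32 RPKM, nearest 3.15), Kif23 in WT replicate 1 (0.631, nearest 0.625), Aurkb in ΔTAM replicate 3 (2.56, nearest 2.42) and Pttg1 in ΔTAM replicate 1 (2.37, nearest 2.22).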

How the results depend on the processing

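Of the 22 members called, 16 kept their call under every alternative that tested them. The 6 that lost it in at least 1 were Aurka, Aurkb, Cdt1, Mcm3, Mcm6 and Ncapd2. Over all genes, a minimum mean of 1 RPKM left 2151 genes, with 591 higher and 401 lower, and voom on 12660 genes gave 2765 and 2763. G1/S members lower were 1 without a filter (Ccnd2, with Mcm6 and Cdt1 lost at adjusted p = 0.0577 and 0.0808), 4 with voom and 0 to 2 with single libraries left out. G2/M members lower were 6 with voom and 2 to 4 with single libraries left out, 4 being without ΔTAM replicate 1. The G1/S median was 0.065 with a pseudocount of 1 RPKM and 0.15 at a minimum mean of 1 RPKM (17 members), where the G2/M median was 0.12 (12 members).

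Replicate numbers are shared by the groups, but deviations of same-numbered libraries correlated only at 0.024 to 0.062, so the numbers were not taken as pairs. With a replicate block, G1/S members lower were 0, as Mcm6 and Cdt1 were lost (adjusted p = 0.0516 and 0.0568), and Ccnb2 was gained (adjusted p = 0.0268).

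The G2/M median turned sign, being -0.011 with median-ratio scaling, -0.015 with quantile normalization and from -0.0046 to 0.012 with single libraries left out. The members whose direction turned had no call and lay close to 0. Without single libraries, Ccnd3 ran from -0.046 to 0.032, Pcna from -0.020 to 0.028, Ccna2 from -7.83e-04 to 0.014, Bub1b from -0.014 to 0.010 and Tpx2 from -0.021 to 0.0028. Pcna was -0.014 with median-ratio scaling and -0.0087 with quantile normalization, Ccna2 -0.0079 and -0.012, and Bub1b 8.84e-04 with voom. The cause was not tested. Depth limits Ccnd2, Ccne2 and E2f2 most, with at most 294 reads in a library.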
